A study of Homo sapiens with 4 samples.

Results

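Lysosome and autophagy genes were followed across the 4 treatment groups of an A549 xenograft study. The 43 genes were picked by name out of 38137 in the deposited tables and not by a cutoff on their values, though with earlier results of these data known. They comprise 10 acid hydrolases, 10 cathepsins and other peptidases, 3 lumenal cofactors, 6 lysosomal membrane proteins, 4 subunits of the proton pump V-ATPase, 3 MiT/TFE transcription factors and 7 autophagy genes. All 43 had a mean of at least 20 reads over the 4 libraries, a minimum that 19393 genes reached, and their reads per library ran between 252 and 43144.
A549 is an established human non-small cell lung cancer (NSCLC) line of adenocarcinoma origin. Its cells were grown under the skin of the flank in male BALB/c athymic nude mice aged 6 weeks, which lack T cells but keep macrophages and other innate immune cells. In the combination group, treadmill running at 8.0 m/min for 30 min preceded irradiation of the tumor (2 Gy a session, X-rays of 6 MV) in 3 sessions a week for 2 weeks. The radiation group received the X-rays alone, the exercise group ran alone, and the control group received neither. Each group had 5 mice and is represented by 1 library, and the sources used here do not say whether that library came from 1 tumor or from several. The libraries held 33432637 (combination), 35408705 (radiation), 34304760 (exercise) and 34602535 (control) reads assigned to genes. Values are read counts scaled to library size (CPM, with TMM factors), and the 95% intervals beside folds (Clopper-Pearson, exact) cover counting error only, not the spread between tumors.
Lysosomes are acid compartments in which hydrolases and cathepsins break down material delivered by endocytosis and by autophagy, the wrapping of cell contents in a membrane that then fuses with the lysosome. V-ATPase pumps the protons that keep the lumen acid, and LAMP proteins coat the inner face of the membrane. Some of these genes carry the E-box CACGTG near their start, where the factors TFEB, TFE3 and MITF can bind. These factors are held in the cytoplasm while the kinase complex mTORC1 is active. A larger lysosomal compartment is a known trait of senescent cells, the state that many tumor cells enter after irradiation, and the stain for senescence detects the β-galactosidase made by GLB1.
The promoter sequences of 4 members are shown because they hold the E-box in different numbers while their radiation changes, given further on, differ in size. They are RefSeq sequences of GRCh38.p14, written 5′ to 3′ along the gene and ending at the base before its annotated start, and the capitals mark each CACGTG.
CTSA (chr20:45891285-45891334, plus strand): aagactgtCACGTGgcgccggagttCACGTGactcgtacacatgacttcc
CTSD (chr11:1763928-1763987, minus strand): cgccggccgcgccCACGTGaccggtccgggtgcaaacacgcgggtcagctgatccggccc
GAA (chr17:80101491-80101580, plus strand): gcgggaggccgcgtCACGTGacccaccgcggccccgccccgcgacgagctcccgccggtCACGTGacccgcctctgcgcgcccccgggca
LAMP1 (chr13:113297039-113297238, plus strand): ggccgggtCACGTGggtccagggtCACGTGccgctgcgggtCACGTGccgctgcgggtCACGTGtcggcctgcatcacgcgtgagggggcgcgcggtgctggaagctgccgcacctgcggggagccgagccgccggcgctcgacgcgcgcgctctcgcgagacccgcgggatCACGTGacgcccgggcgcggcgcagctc
CTSA, GAA and LAMP1 thus show 2, 2 and 5 copies, and LAMP1 has 6 in its whole window, while CTSD shows 1. A window of 250 bases before to 50 bases after the start was found for 34 of the 43 members; the other 9 had none in the table used. Read on both strands, the E-box was in 9 of the 34 member genes with a window (26.5%), against 8.77% of 27305 genes. The 9 were CTSA, CTSD, CTSF, GAA, NEU1, CD63, LAMP1, MCOLN1 and ATP6V0D1. The longer motif GTCACGTGAC, which contains the E-box, was in 2 of the 34, GAA and MCOLN1 (5.88%, against 0.421% of all genes). A match describes the letters in the window and not a bound site.
With radiation, most of these genes stood higher. Both irradiated libraries lay above both unirradiated libraries for 35 of the 43 members, against 26.2% of all 19393 genes, and both lay below for 2 (TFE3 and ULK1), against 27.6% of all genes. In an additive fit over the 4 libraries with a radiation term and an exercise term (edgeR's quasi-likelihood test with Benjamini-Hochberg adjustment over all genes), 24 members were higher with radiation at an adjusted p under 0.05 and 0 were lower, against 5.55% and 3.75% of all genes. At an unadjusted p under 0.05, 32 members were higher and 0 lower, against 23% of all genes in either direction. The members' median log2 fold change for radiation was 0.40, with 40 of 43 above 0, and the median over all genes was −0.01. DESeq2 with the same design called 17 of the 24 and 0 lower, and did not call ARSA, ASAH1, ATP6V1A, CTSF, LIPA, MITF and WIPI1. The fit has 1 residual degree of freedom over 4 libraries, and the noise behind its p-values was moderated by the spread shared over genes. That noise holds both the spread between tumors and any departure from additivity, which cannot be told apart. With 1 library per group it is no separate measure of the variation between mice.

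**Figure D1:**
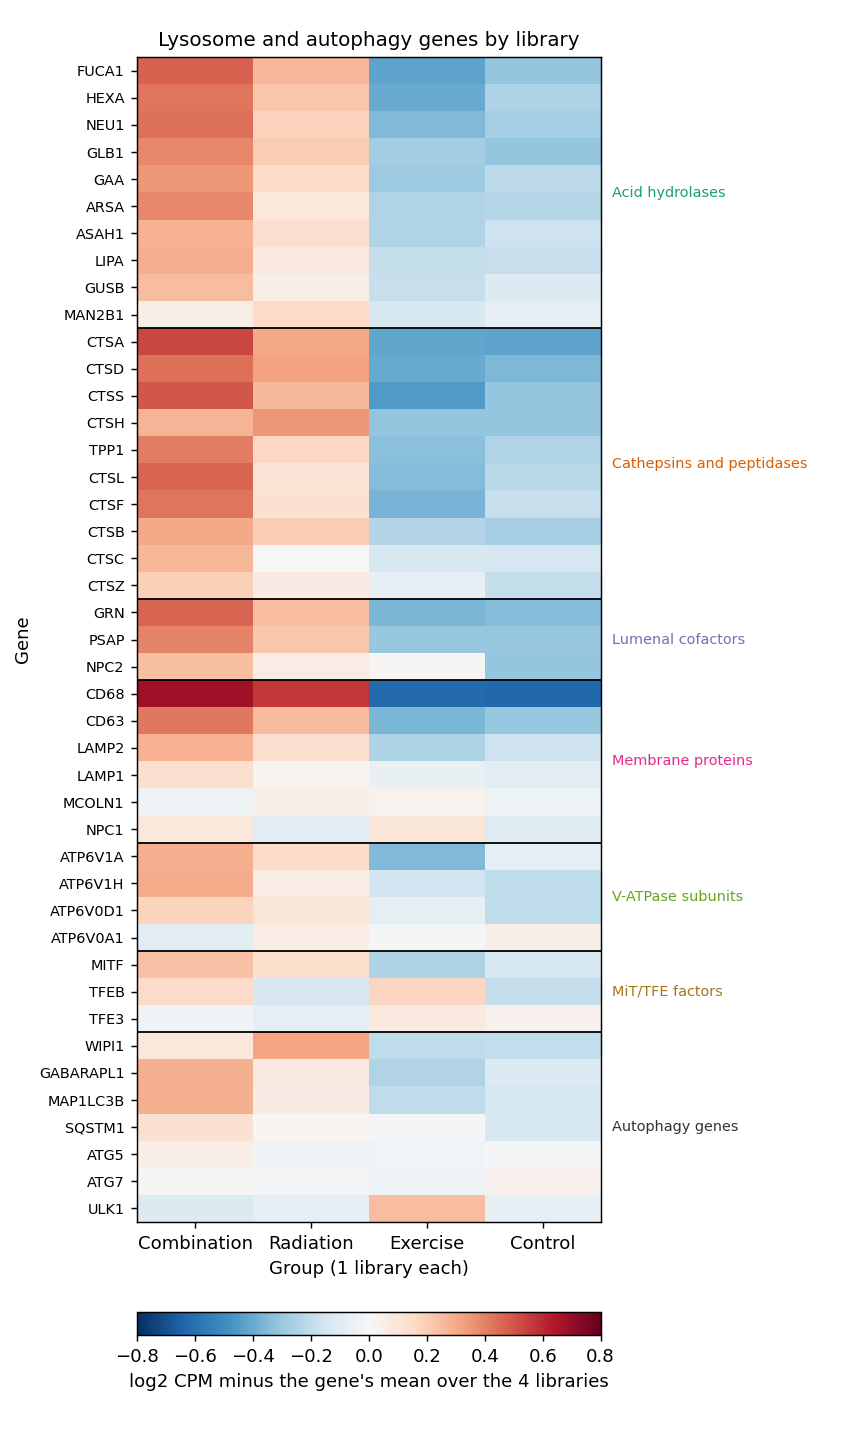
Each row is 1 of the 43 genes and each column 1 library; color is log2 CPM minus the gene's mean over the 4 libraries, from blue (lower) to red (higher). Hydrolases, cathepsins and lumenal cofactors are red or pale in the combination and radiation columns and blue or pale in the exercise and control columns. CTSC lies near its mean with radiation and NPC2 near its mean with exercise, and ULK1 and TFE3 have their highest value in the exercise column.

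Acid hydrolases were higher in the irradiated libraries. All 10 had both irradiated libraries above both unirradiated libraries, and 8 of 10 passed the test, with a median log2 fold change of 0.48. GLB1 (chr3:32961108-33097146 in GRCh38.p14), the lysosomal β-galactosidase, had 219.6 CPM in the combination and 193 CPM with radiation alone, against 139 CPM with exercise alone and 136 CPM in control. The irradiated pair lay above the unirradiated pair, and the combination was the highest. GLB1 was higher by 1.62-fold (95% interval 1.56 to 1.68) in the combination than in control and by 1.43-fold (95% interval 1.37 to 1.48) with radiation alone, and the additive fit gave a log2 fold change of 0.59, adjusted p = 0.00367 (edgeR). FUCA1, which removes fucose from glycoproteins, had 43.5 and 37.6 CPM in the combination and radiation libraries and 23.3 and 25.1 CPM in the exercise and control libraries, the largest radiation change of the 10 (log2 fold change of 0.74, adjusted p = 0.00146, edgeR).
HEXA, the alpha subunit of β-hexosaminidase, had 180.3 CPM in the combination and 156 CPM with radiation alone, against 102 CPM with exercise alone and 113 CPM in control. NEU1, the lysosomal sialidase, which works in a complex with CTSA and GLB1, had 69.2 and 57.9 CPM in the combination and radiation libraries and 39.8 and 42.1 CPM in the exercise and control libraries. Over control, HEXA stood at 1.59-fold (95% interval 1.53 to 1.66) in the combination and 1.38-fold (95% interval 1.32 to 1.44) with radiation alone, and NEU1 at 1.64-fold (95% interval 1.54 to 1.75) and 1.37-fold (95% interval 1.28 to 1.47) in the same 2 libraries. GAA, the acid glucosidase that digests glycogen and whose window holds the longer motif, had 209 CPM (combination), 182 CPM (radiation), 134 CPM (exercise) and 142 CPM (control). ARSA, the arylsulfatase that degrades sulfatide, had 49.1 CPM (combination), 39.9 CPM (radiation), 31.9 CPM (exercise) and 32.1 CPM (control). ARSA stood at 1.53-fold (95% interval 1.42 to 1.65) of control in the combination and at 1.24-fold (95% interval 1.15 to 1.34) with radiation alone, so its radiation value lay between the combination and the unirradiated pair. In the additive fit all 4 passed, HEXA with a log2 fold change of 0.65, adjusted p = 0.00307, NEU1 with a log2 fold change of 0.63, adjusted p = 0.00280, GAA with a log2 fold change of 0.50, adjusted p = 0.0126 and ARSA with a log2 fold change of 0.47, adjusted p = 0.0178 (edgeR). ASAH1 and LIPA, which cleave ceramide and cholesterol esters, also passed, with log2 fold changes of 0.41 and 0.37. GUSB and MAN2B1 did not pass (adjusted p = 0.0944 and 0.238, edgeR). MAN2B1, the lysosomal alpha-mannosidase, had 52.2 CPM (combination), 55.8 CPM (radiation), 46.1 CPM (exercise) and 48.2 CPM (control), with its highest value in the radiation library.
Among the cathepsins and peptidases, all 10 again had both irradiated libraries on top, and 8 passed the test, with a median log2 fold change of 0.57. CTSA (chr20:45891335-45898820), a serine carboxypeptidase that also shields GLB1 and NEU1, had 146 CPM in the combination and 124 CPM with radiation alone, against 75.4 CPM with exercise alone and 75.2 CPM in control. The unirradiated libraries were almost equal and both irradiated libraries lay above them. The folds were 1.94-fold (95% interval 1.85 to 2.03) for the combination and 1.65-fold (95% interval 1.57 to 1.73) for radiation over control (log2 fold change of 0.84, adjusted p = 0.000332, edgeR). CTSD (chr11:1752755-1763927), the main aspartic protease of the lysosome, had 555 and 511 CPM in the combination and radiation libraries and 309.8 and 319 CPM in the exercise and control libraries. Its folds over control were 1.74-fold (95% interval 1.70 to 1.78) in the combination and 1.605-fold (95% interval 1.57 to 1.64) with radiation (log2 fold change of 0.76, adjusted p = 0.00187, edgeR), and the combination stood at 1.09-fold (95% interval 1.06 to 1.11) of the radiation library.
CTSS, a cysteine protease that trims the invariant chain in antigen-presenting cells, had 169 CPM in the combination and 143 CPM with radiation alone, against 87.1 CPM with exercise alone and 96.5 CPM in control (log2 fold change of 0.76, adjusted p = 0.00114, edgeR). CTSL, the broad cysteine endopeptidase, had 200.1 and 157 CPM in the combination and radiation libraries and 114 and 124 CPM in the exercise and control libraries (log2 fold change of 0.57, adjusted p = 0.0108, edgeR). CTSL had the largest ratio of combination to radiation of the 43 genes, 1.28-fold (95% interval 1.23 to 1.32). CTSF, another cysteine protease, had 36.9 CPM (combination), 29.9 CPM (radiation), 21.2 CPM (exercise) and 24.2 CPM (control), and TPP1, which removes tripeptides from protein ends, had 192 CPM (combination), 162 CPM (radiation), 114 CPM (exercise) and 122 CPM (control). In both of these the exercise library was the lowest and the combination the highest. CTSH, an aminopeptidase, went the other way within the irradiated pair, with 39.9 CPM in the combination and 42.3 CPM with radiation alone, against 26.6 CPM with exercise alone and 26.6 CPM in control. Its ratio of combination to radiation was 0.943-fold (95% interval 0.875 to 1.02), an interval that includes 1, and the additive fit gave a log2 fold change of 0.63, adjusted p = 0.00230 (edgeR). CTSF passed with a log2 fold change of 0.55, adjusted p = 0.0183, and TPP1 with a log2 fold change of 0.58, adjusted p = 0.00592 (edgeR). CTSB, an abundant cysteine protease, passed with a log2 fold change of 0.50, while CTSC and CTSZ had log2 fold changes of 0.27 and 0.26 and did not pass.
The lumenal cofactors include the most abundant of these transcripts, and 2 of 3 passed, with a median log2 fold change of 0.61. Per kilobase of exon, the mean level over the 4 libraries was highest for PSAP at 317 CPM per kb. CD63 at 175, CTSD at 136, SQSTM1 at 101 and GRN at 90.02 CPM per kb followed. MCOLN1 at 2.11 and TFEB at 1.44 CPM per kb were the lowest. Whether the counts include reads in introns is not given in the sources used here, and such reads would raise these levels. PSAP encodes prosaposin, the precursor of the activators that present lipids to the hydrolases, and had 1317 CPM in the combination and 1163 CPM with radiation alone, against 811 CPM with exercise alone and 813 CPM in control (log2 fold change of 0.61, adjusted p = 0.0168, edgeR). GRN encodes progranulin, a secreted protein that is cut into granulins in the lysosome, and had 442 and 381 CPM in the combination and radiation libraries and 249.4 and 252 CPM in the exercise and control libraries (log2 fold change of 0.71, adjusted p = 0.00256, edgeR). In both genes the unirradiated libraries were almost equal and lay below the irradiated pair. NPC2, which passes cholesterol to NPC1, had 73.6 CPM (combination), 64.8 CPM (radiation), 62.5 CPM (exercise) and 50.2 CPM (control). Its exercise library was closer to the radiation library than to control, at 1.25-fold (95% interval 1.17 to 1.33) over control, and its radiation term did not pass (log2 fold change of 0.30, adjusted p = 0.0673, edgeR).
Of the 6 membrane proteins, 3 passed, with a median log2 fold change of 0.28. CD68 (chr17:7579638-7582111), a heavily glycosylated LAMP-like protein used as a macrophage marker, had 109.7 CPM in the combination and 101 CPM with radiation alone, against 44.6 CPM with exercise alone and 44.3 CPM in control. It was the only member at least 2-fold different in any of the 5 comparisons, at 2.47-fold (95% interval 2.33 to 2.63) in the combination and 2.29-fold (95% interval 2.15 to 2.43) with radiation over control and 2.46-fold (95% interval 2.32 to 2.62) in the combination over exercise alone (log2 fold change of 1.25, adjusted p = 9.59e-06, edgeR). Of 16 other macrophage markers, TYROBP, C1QA, C1QB and C1QC had 0 reads in all 4 libraries. LYZ, CD14, MRC1 and CD163 had more reads in both irradiated libraries than in both unirradiated ones, and PTPRC did not. Their values are given further on. Of the 5 with enough reads to test, 2 had both irradiated libraries above both unirradiated libraries and 2, CSF1R among them, had both below. The part of these markers in the CD68 change was not tested. CD63, a tetraspanin of lysosomes and exosomes, had 601 and 533 CPM in the combination and radiation libraries and 347 and 362 CPM in the exercise and control libraries (log2 fold change of 0.67, adjusted p = 0.00474, edgeR). LAMP2, a coat protein of the lysosomal membrane, had 154 CPM (combination), 139 CPM (radiation), 107 CPM (exercise) and 113 CPM (control) and passed (log2 fold change of 0.41, adjusted p = 0.0243, edgeR). LAMP1 (chr13:113297239-113323672), whose promoter shows the most E-boxes of those printed, had 84.2 CPM (combination), 78.4 CPM (radiation), 74.2 CPM (exercise) and 72.5 CPM (control). The 4 libraries of LAMP1 lay close together, and it did not pass (log2 fold change of 0.15, adjusted p = 0.384, edgeR). NPC1 and MCOLN1, the cholesterol transporter and the calcium channel of the lysosomal membrane, had additive log2 fold changes of 0.00 and 0.01 and did not pass.

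**Figure D2:**
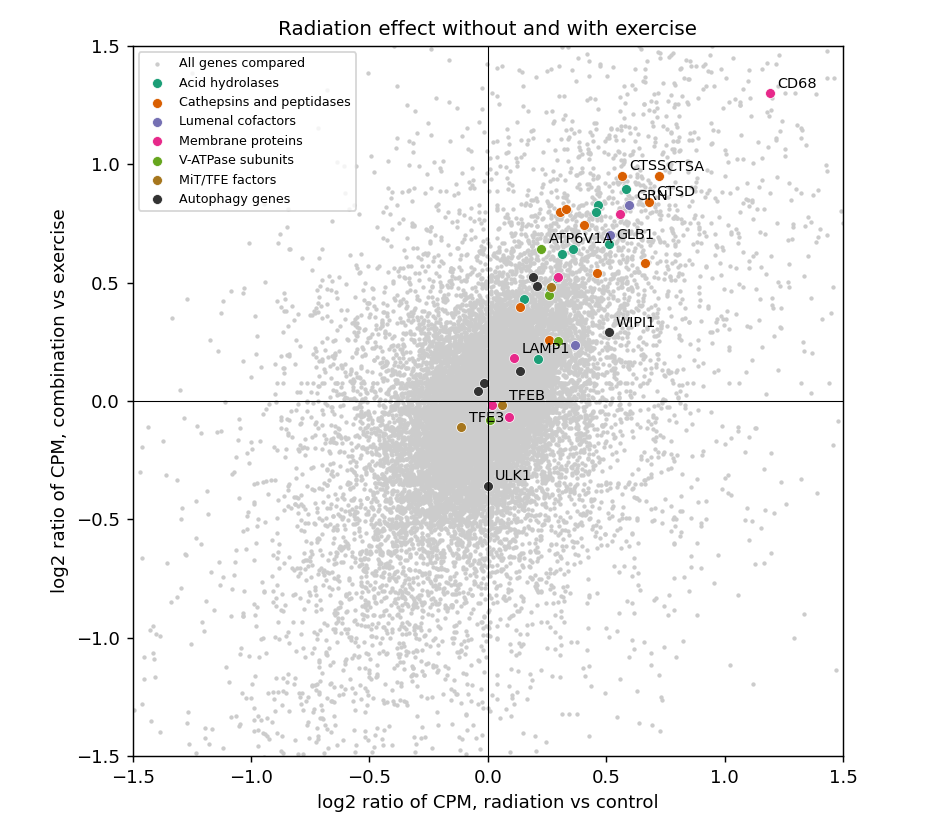
Each point is a gene, with the log2 ratio of radiation over control on the x axis and of combination over exercise on the y axis, members colored by role and all other genes compared in grey; 466 of all genes lie beyond the axes. Of the 43 members, 35 lie to the upper right of both zero lines, and CD68 is the farthest out.

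Of the 4 pump subunits, 1 passed. ATP6V1A, the catalytic subunit of the V-ATPase head, had 72.9 CPM in the combination and 65.8 CPM with radiation alone, against 46.6 CPM with exercise alone and 56.3 CPM in control. Its exercise library was the lowest, at 0.828-fold (95% interval 0.775 to 0.884) of control, and the radiation term passed (log2 fold change of 0.43, adjusted p = 0.0286, edgeR). ATP6V1H and ATP6V0D1 had log2 fold changes of 0.35 and 0.28 and did not pass. ATP6V0A1, a subunit of the membrane part, had 134 CPM (combination), 148 CPM (radiation), 141 CPM (exercise) and 147 CPM (control), with the combination the lowest of the 4 libraries.
Of the 3 transcription factors, 1 passed. MITF had 44.1 CPM in the combination and 41.4 CPM with radiation alone, against 31.6 CPM with exercise alone and 34.4 CPM in control (log2 fold change of 0.37, adjusted p = 0.0414, edgeR), though not with DESeq2. TFEB (chr6:41683978-41736223) had 8.95 CPM (combination), 7.36 CPM (radiation), 9.06 CPM (exercise) and 7.06 CPM (control). The exercised libraries of TFEB were both above the sedentary ones, as for 4.65% of members and 11.6% of all genes. Its exercise term did not pass (adjusted p = 0.930, edgeR). The radiation term of TFEB was near 0 (log2 fold change of 0.02, adjusted p = 0.960, edgeR), and it had 252 to 313 reads a library. TFE3 had 98.0 CPM (combination), 95.01 CPM (radiation), 106 CPM (exercise) and 103 CPM (control) (log2 fold change of −0.11, adjusted p = 0.534, edgeR). Levels of mRNA do not show where these proteins are in the cell, and that was not measured here.
Of the 7 autophagy genes, 1 passed. WIPI1, which binds the lipid of the forming membrane, had 37.2 CPM in the combination and 43.6 CPM with radiation alone, against 30.4 CPM with exercise alone and 30.6 CPM in control (log2 fold change of 0.40, adjusted p = 0.0321, edgeR). Its highest value was in the radiation library, and its ratio of combination to radiation was 0.853-fold (95% interval 0.791 to 0.921), the lowest of the 43 genes. The gene span of WIPI1 overlaps that of PRKAR1A, with a mean of 10507 reads, and whether the counting kept the strands apart is not given in the sources used here. In all, the RefSeq spans of 12 members overlap another gene with a mean of at least 20 reads. Among them are CTSA (PLTP), CD63 (RDH5), GLB1 (TMPPE), SQSTM1 (MGAT4B), ATG7 (VGLL4) and LIPA (4 IFIT genes). For LIPA, the length implied by the deposited FPKM was 0.191 of its RefSeq span, so this overlap may not apply to its counts. SQSTM1, the cargo receptor p62, had 839 CPM (combination), 778 CPM (radiation), 768 CPM (exercise) and 708 CPM (control), and ULK1, the kinase that starts autophagy, had 119 CPM (combination), 122 CPM (radiation), 152 CPM (exercise) and 122 CPM (control). ULK1 was higher with exercise alone than in every other library, at 1.24-fold (95% interval 1.19 to 1.29) over control, and in the combination it stood at 0.780-fold (95% interval 0.749 to 0.814) of the exercise library. ATG5 and ATG7, needed to attach LC3 to membranes, were nearly level: ATG5 had 27.0 CPM (combination), 25.5 CPM (radiation), 25.6 CPM (exercise) and 25.8 CPM (control), and ATG7 had 127 CPM (combination), 126 CPM (radiation), 123 CPM (exercise) and 129.5 CPM (control). None of these 4 passed (adjusted p = 0.602 for SQSTM1, 0.365 for ULK1, 0.909 for ATG5 and 0.996 for ATG7, edgeR). The LC3 family genes MAP1LC3B and GABARAPL1 had log2 fold changes of 0.35 and 0.36, just outside the threshold (adjusted p = 0.0517 and 0.0532, edgeR), and MAP1LC3B may share reads with its near-identical copy MAP1LC3B2.
The size of the radiation change was then set beside the E-box. The 9 members with an E-box in a window had a median log2 fold change of 0.55 (0.01 to 0.84) and 6 of 9 passed, while the 25 members with a window but no E-box had a median of 0.30 (−0.18 to 1.25) and 10 of 25 passed. The ranges overlap almost wholly. The 9 members without a window are in neither set, and all of them but ATP6V1H passed. CTSA, GAA and CTSF, with 2 copies each, passed, whereas MCOLN1, also with 2, and LAMP1, with 6, did not. CD68, which changed most, has none in its window. Whether the E-box had a part in the radiation change was not tested.
Each of the 5 comparisons was read against all genes. In the combination against control, 39 of 43 members had a ratio above 1 (47.8% of all genes), 15 passed 1.5-fold upward (6.12%) and CD68 was the 1 that passed 2-fold (2.27%), with a median log2 ratio of 0.45. With radiation alone against control, 39 were above 1 (50.1%), 5 were at least 1.5-fold higher (5.77%), namely CD68, CTSA, CTSD, CTSH and GRN, and CD68 was at least 2-fold higher (1.89%), with a median of 0.30. FUCA1 lay at the boundary, at 1.4998-fold (95% interval 1.38 to 1.63). In the combination against exercise alone, 37 were above 1 (47.8%), 17 were at least 1.5-fold higher (7.66%) and CD68 was at least 2-fold higher (2.92%), with a median of 0.52. No member was lower by 1.5-fold or 2-fold in any of the 5 comparisons. The shares of all genes lower by 1.5-fold and by 2-fold were 6.55% and 1.77% for combination against control, 4.35% and 0.897% for radiation against control, 3.21% and 0.701% for exercise against control, 4.26% and 0.887% for combination against radiation, and 8.33% and 3.06% for combination against exercise. The medians over all genes were −0.02, 0.00 and −0.02 in these 3 comparisons. The combination and radiation comparisons with control share the control library, so their values are given side by side only.
Radiation against control and the combination against exercise share no library and measure radiation without and with exercise. Of the 43 members, 35 were higher in both (81.4%), against 32.5% of all genes. They are the same 35 whose irradiated libraries both lay above both unirradiated libraries, so this count is not a second result. At least 1.5-fold higher in both were 4 (9.30%), against 3.18% over the whole table. The 4 were CD68, CTSA, CTSD and GRN. The median over members was 0.52 with exercise and 0.30 without it.
With exercise alone these genes lay near control. In exercise against control, 16 members were above 1 (50.4% of all genes) and 27 below (25 to 33 below across the scalings tried), 0 were 1.5-fold or 2-fold higher (3.84% and 0.83%), and the median log2 ratio was −0.01, with a range of −0.27 (ATP6V1A) to 0.36 (TFEB). In the combination against radiation alone, 37 of 43 members were above 1 (50.1%), 0 were 1.5-fold or 2-fold higher (2.31% and 0.418%), and the median log2 ratio was 0.17, with a range of −0.23 (WIPI1) to 0.35 (CTSL). These comparisons share no library either. Below 1 in the exercise comparison and above 1 in the combination comparison were 23 members (53.5%), against 24.7% of all genes, and 14 were above 1 in both (32.6%), against 25.4%. The exercise term of the additive fit called 0 members with edgeR and 0 with DESeq2, with 1 member (NPC2) and 0 members at an unadjusted p under 0.05 (5.6% of all genes with edgeR). Across all genes it called 0.0567% as higher and 0.0258% as lower.

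**Figure D3:**
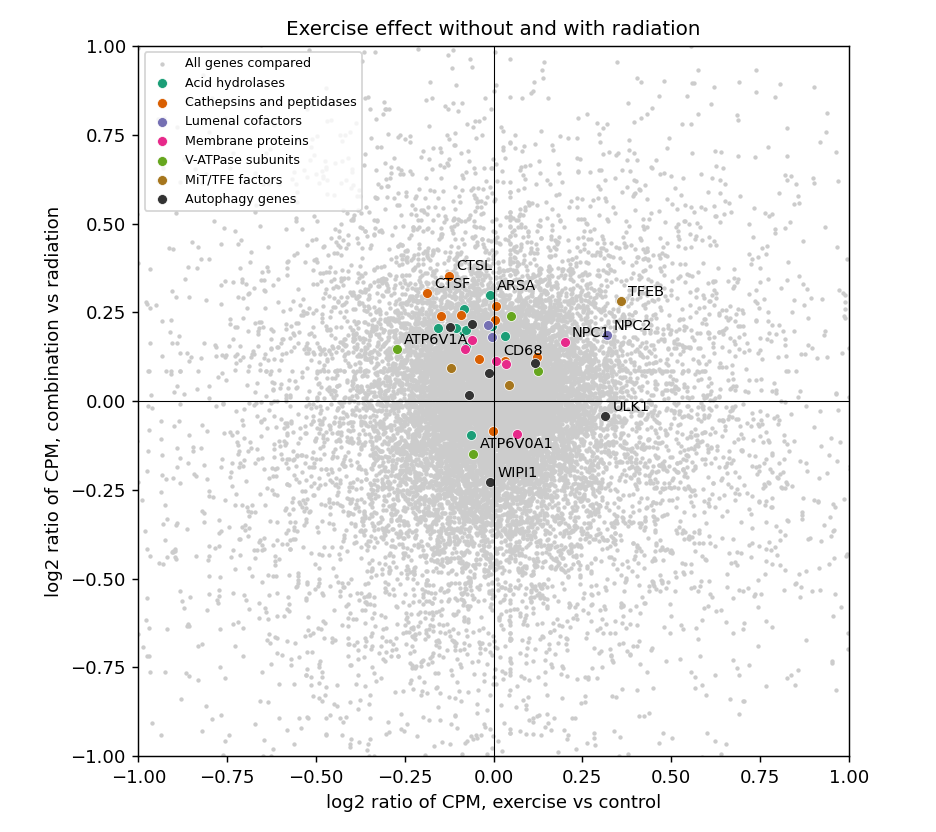
Each point is a gene, with the log2 ratio of exercise over control on the x axis and of combination over radiation on the y axis, members colored by role and all other genes in grey; 535 of all genes lie beyond the axes. Members lie mostly above the horizontal line, 23 of them to the left of the vertical line, and WIPI1 and ULK1 lie below it.

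Further genes of the same compartment, not among the 43, were read in the same fit. The shares of all genes called were 5.55% higher and 3.75% lower. Of 35 other lumenal enzymes tested, 12 were higher with radiation (34.3%) and 1, CTSV, was lower (2.86%), with a median log2 fold change of 0.29. NAGLU, which degrades heparan sulfate, had 109.5 and 106 CPM in the combination and radiation libraries and 61.5 and 68.3 CPM in the exercise and control libraries (log2 fold change of 0.73, adjusted p = 0.000645, edgeR). LGMN, an asparaginyl peptidase that processes cathepsins, had a log2 fold change of 0.69. CTSV, a cysteine protease close to CTSL, had 2.84 CPM (combination), 3.22 CPM (radiation), 6.31 CPM (exercise) and 4.56 CPM (control) (log2 fold change of −0.83, adjusted p = 0.0409, edgeR). Of 18 other V-ATPase genes, 5 were higher (27.8%: ATP6V0C, ATP6V0E1, ATP6V1D, ATP6AP1 and ATP6AP2, log2 fold changes 0.36 to 0.49), and of 19 other membrane proteins 3 were higher (15.8%: SCARB2, SLC17A5 and MFSD1). DESeq2 called 11, 3 and 0 genes higher in these 3 lists, and CTSV not lower.
Of 9 genes that tag or sort lysosomal enzymes (mannose 6-phosphate tagging enzymes, their receptors, SORT1 and GGA adaptors), 0 passed in edgeR or DESeq2, with 3 and 0 at an unadjusted p under 0.05. Of 38 other autophagy genes, 2 were higher, ATG4A and DRAM1 (5.26%), and 1 was lower, ULK2 (2.63%; log2 fold change of −0.36, adjusted p = 0.0430, edgeR), with a median of 0.06. Those shares are close to the shares of all genes, and DESeq2 kept DRAM1 alone. Of 18 genes that control mTORC1, 1 was higher (5.56%, at the share of all genes), the Rag GTPase RRAGD, with 15.3 CPM in the combination and 12.9 CPM with radiation alone, against 7.41 CPM with exercise alone and 8.65 CPM in control (log2 fold change of 0.81, adjusted p = 0.00886, edgeR). Of 4 cystatins, which inhibit cysteine cathepsins, 1 was higher, CST3, with 884 and 824 CPM in the combination and radiation libraries and 413 and 474 CPM in the exercise and control libraries (log2 fold change of 0.95, adjusted p = 0.000928, edgeR). The genes named from these lists were picked after their values were seen.

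**Figure D4:**
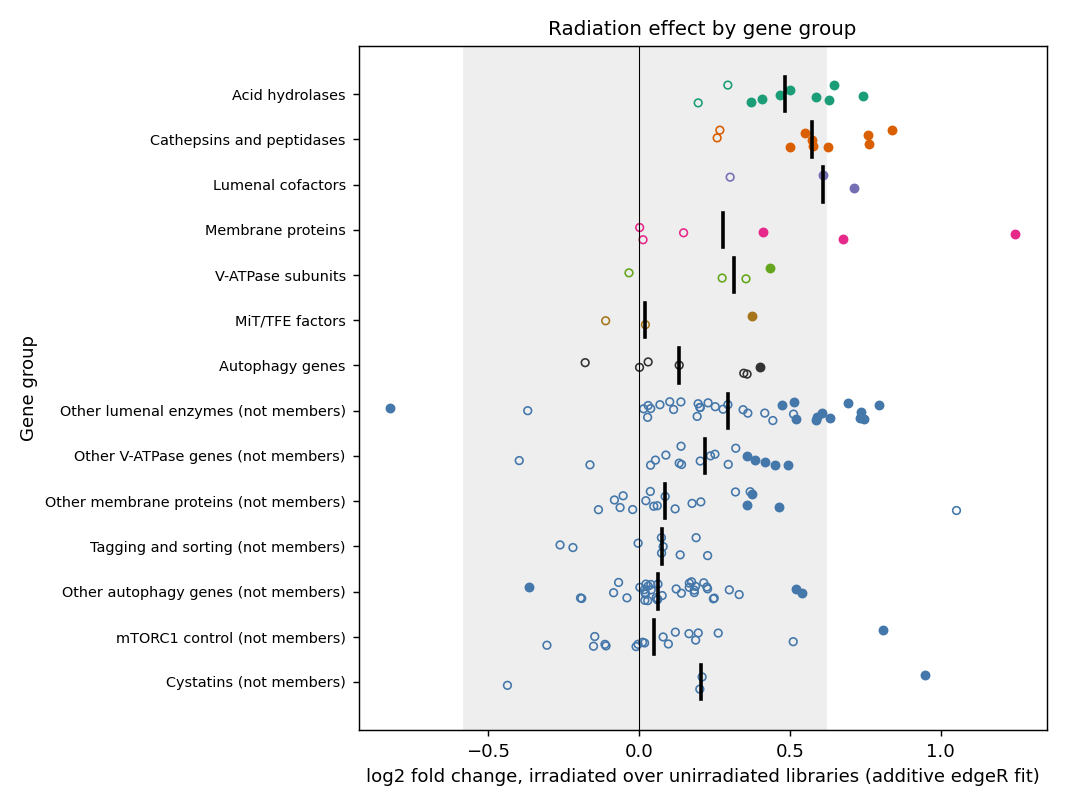
Each point is a gene, with its additive log2 fold change for irradiated over unirradiated libraries on the x axis; filled points have an adjusted p under 0.05 in edgeR, black bars are group medians, and the grey band runs between the 5th and 95th percentiles of all genes (−0.58 to 0.62). Cathepsins (median 0.57), lumenal cofactors (0.61) and hydrolases (0.48) have the highest medians, and autophagy genes outside the 43 are centered near 0.06.

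Markers of other cells were read in the same libraries. The markers of A549 epithelium had far larger sums than the other marker lists in all 4 libraries, with the values given below. Mouse RNA can enter the counts only through sequence shared with human genes. The 16 macrophage markers summed to 388 CPM (combination), 332 CPM (radiation), 323 CPM (exercise) and 332 CPM (control). Of these, TYROBP, C1QA, C1QB and C1QC had 0 reads in all 4 libraries, and CSF1R made up most of the sum, with 251 CPM (combination), 239 CPM (radiation), 267 CPM (exercise) and 278 CPM (control). Without CSF1R, the other 15 markers summed to 138 and 92.7 CPM in the combination and radiation libraries, against 55.9 and 53.9 CPM in the exercise and control libraries, most of it from LYZ. LYZ, the lysozyme that macrophages and airway cells both make, had 124 CPM in the combination and 81.8 CPM with radiation alone, against 40.9 CPM with exercise alone and 41.8 CPM in control (log2 fold change of 1.28, adjusted p = 0.000106, edgeR), and was the 1 of 5 macrophage markers tested that passed. CD14 had 2.41 CPM (combination), 1.78 CPM (radiation), 1.45 CPM (exercise) and 1.04 CPM (control) and did not pass (log2 fold change of 0.76, adjusted p = 0.124, edgeR). MRC1 had 30 (combination), 14 (radiation), 4 (exercise) and 6 (control) reads, too few to enter the fit. CD163, with 7 (combination), 3 (radiation), 0 (exercise) and 0 (control) reads, also had too few. PTPRC, likewise too low for the fit, had 15 (combination), 8 (radiation), 14 (exercise) and 7 (control) reads. Its radiation library thus lay below its exercise library. CD68 and CTSS are also used as macrophage markers. The 12 fibroblast markers summed to 208 CPM (combination), 253 CPM (radiation), 379 CPM (exercise) and 372 CPM (control), with 4 of 10 tested lower with radiation in edgeR and 2 in DESeq2. The 8 muscle markers summed to 31.0 CPM (combination), 25.1 CPM (radiation), 5.56 CPM (exercise) and 5.26 CPM (control), with 4 of 6 tested higher with radiation in both edgeR and DESeq2. The 8 endothelial markers summed to 8.24 CPM (combination), 12.3 CPM (radiation), 17.2 CPM (exercise) and 21.8 CPM (control), with 1 of 2 tested lower with radiation in both. The 8 markers of A549 epithelium summed to 16008 CPM (combination), 15122 CPM (radiation), 15922 CPM (exercise) and 15251 CPM (control), and 0 of them passed in edgeR or DESeq2, with 1 and 2 at an unadjusted p under 0.05. The sums of fibroblast, endothelial and muscle markers thus differed between irradiated and unirradiated libraries, as did most of the lysosomal genes. The sum of all 16 macrophage markers did not split this way, at 332 CPM in both the radiation and the control library. Without CSF1R the macrophage sum did split, with LYZ making up most of it. The part of all these markers in the changes above was not tested. In bulk tumor RNA, fewer cells of a type and less RNA per cell cannot be told apart.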

How the data were processed

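RNA of A549 xenografts was sequenced as 1 polyA-selected stranded library per group, read as pairs of 100 nt. Per the submitters' processing notes and the methods, the authors trimmed reads with cutadapt, aligned to GRCh38 with Bowtie2 2.3.4.1 and deposited unnormalized read counts per gene from featureCounts 1.6.0, beside FPKM. How mouse reads and pooling were handled is not given in the sources used here. Bowtie2 does not split reads over introns. The length implied by the deposited FPKM values includes introns for most members, so FPKM served only as an alternative.
Counts were scaled by TMM (factors 0.9796 to 1.032 from the 19393 genes averaging 20 or more reads) to CPM, with a prior of 0.5 counts in log2 ratios. Ratios of single libraries carry no test. The additive fit used glmQLFit in edgeR 4.0.16 (R 4.3.3), with a common coefficient of variation of 0.0960 and 11.0 prior degrees of freedom, and DESeq2 1.42.0 as the alternative. Other steps used matplotlib 3.10.9, scipy 1.17.1, pandas 2.3.3 and numpy 2.4.6 in python 3.11.15. Levels per kilobase used merged exons of GENCODE 29. The fit was also run on simulated counts, drawn with the common coefficient of variation above and with no departure from additivity. It called 49.2% of 65 genes changed 1.5-fold by radiation, at an adjusted p under 0.05. Some genes of the further lists enter the counts but are not reported here by name. Members, lists and tests were chosen with earlier results of these data known. Values in every library are given for members at least 1.5-fold different in any comparison, the 3 highest and 3 lowest of each, and 8 genes that stand for the roles (31 members), and the other 12 by counts and ranges. Exact intervals use a level of 95%.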

Additional observations from a re-analysis of the deposited data

Results flagged for a closer look

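For 12 members the ratio of exercise over no exercise had opposite signs with and without radiation, with both counting intervals excluding 1. In all 12 (27.9% of 43) the ratio was below 1 without radiation and above 1 with it, against 4.79% of all 19393 genes and 6.55% of the 12847 genes whose mean counts lie within the members' range. No member had the reverse order, against 4.37% of all genes. The difference, the log2 ratio of combination over radiation minus that of exercise over control, was 0.49 for CTSF (0.30 and −0.19), 0.48 for CTSL (0.35 and −0.13), 0.42 for ATP6V1A (0.15 and −0.27) and 0.39 for CTSS (0.24 and −0.15). It was 0.36 for HEXA (0.20 and −0.16), 0.34 for TPP1 (0.24 and −0.09), 0.33 for GABARAPL1 (0.21 and −0.12) and 0.28 for GAA (0.20 and −0.09). The smallest were 0.23 for CD63 (0.17 and −0.06), 0.23 for ASAH1 (0.15 and −0.08), 0.23 for LAMP2 (0.15 and −0.08) and 0.16 for CTSD (0.12 and −0.04). All 12 stood higher in the combination library than in the radiation library and lower in the exercise library than in control, and they kept opposite signs in all 6 scalings and settings tried. With 1 library per group the difference was not tested, and the intervals leave out the spread between tumors. No member had opposite signs of this kind for radiation.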

How the results depend on the processing

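With total-count, median-of-ratios and all-gene TMM scaling (the last chosen after seeing the data), a prior of 2 counts and FPKM with 0.1 added, the number of members above 0 was 37 in every setting for combination against radiation, 37 to 39 for combination against control, 36 to 39 for radiation against control and 37 to 39 for combination against exercise. The median member log2 ratio of combination against control was 0.37 with total-count scaling and 0.36 with FPKM, against 0.45. At a 1.5-fold threshold, 15 members in place of 1 were higher in combination against control, 5 in radiation against control and 17 in combination against exercise. Of the member log2 ratios under these settings, 93 moved beyond their counting interval (50 with FPKM, 41 with total counts, 2 with all-gene TMM) and no value past 2-fold changed sign. The radiation term called 24 members in edgeR, 25 with median-of-ratios scaling, 27 with all-gene TMM, 26 without a minimum count, 24 with a minimum of 100 and 17 in DESeq2, which lost ARSA, ASAH1, ATP6V1A, CTSF, LIPA, MITF and WIPI1. Across all genes, edgeR called 1076 higher and 727 lower, DESeq2 637 and 306, all-gene TMM 1410 and 1010, and no minimum count 1426 and 1080. In combination against control, 441 genes were 2-fold higher and 343 lower, but 368 and 442 with total-count scaling, 160 and 81 with FPKM, and 224 and 101 with a minimum of 100. No paired analysis was possible because each group has 1 library. For the same reason, leaving out a library leaves no residual degree of freedom.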
